A study of Mus musculus with 5 samples.

Results

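Clone 30 is 1 of 5 clones of mouse cardiac progenitor cells whose RNA was measured on Affymetrix expression arrays, and it was taken by its label. Each clone was measured on 1 array, so clone 30 contributed 1 of the 5 arrays and had no replicate. The other 4 arrays, of clones 1D, 11B, 20B and 42, are what it was set against. All 5 clones carry the strain name C67BL/6 and came from heart left ventricles of mice 5 to 6 months old. Sca-1-positive cells had been pulled from the digested ventricles with magnetic beads, grown out, picked with cloning rings and subcloned by dilution, and Sca-1, c-kit and Oct-4 had been looked for by immunostaining. No transgene, drug or other treatment is given for any clone. A clone descends from very few cells, so the values of clone 30 describe 1 line and not a class of cells. The title of the series places the comparison of the clones under the question of how they differ in SDF-1 production and in their capacity to support vessel growth.

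Cardiac progenitor cells of this kind are proliferating, adherent cells of the heart's interstitium that share much of their expression with other mesenchymal cells. They are studied mainly for the factors they secrete, among them chemokines, vascular growth factors, prostanoids and matrix proteins, which act on neighbouring vessel and muscle cells. Cells lining the heart's surface, the epicardium and mesothelium, carry keratins and can give rise to mesenchymal cells, so markers of that layer are often examined beside progenitor markers.

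A deposited value is a ratio: the signal of a probe set, the group of probes that reads a transcript, over its own median across the arrays or, for dim probe sets, over a floor. This divisor was inferred from the values. A ratio of 1 is therefore the middle clone or, for dim probe sets, the floor. It is not a level, and levels cannot be compared between genes. The deviation of clone 30 is its log2 ratio minus the median log2 ratio of the other 4 clones, averaged over a gene's probe sets before the subtraction. A gene was called where the deviation reached 1 log2 unit, which is 2-fold. A stricter call asked for 1 log2 unit against the nearest of the other 4 clones. Of 18193 genes named on the array, 9435 could be followed on some probe set (called measured), 6388 of them on 1 probe set only. With 1 array per clone nothing could be tested, no p-value exists, and no difference has a replicate check. Probe sets of the same gene gave the only error: their clone 30 deviations differed with an SD of 0.52 log2 units over 6681 pairs, which is an SD of 0.37 for a single probe set.

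Several array-wide measures move with the clones and touch every value of clone 30. The column medians of the deposited ratios were 0.826 in clone 30 and 0.836 to 0.851 in the other clones. As a relative measure of RNA integrity, the deposited ratio of the 5' Actb probe set was divided by that of the 3' probe set. The result was 0.743 in clone 30, against 1.08, 0.597, 1.00 and 1.08 in clones 1D, 11B, 20B and 42. The same quotient for Gapdh was 1.00 in clone 30 and 0.924 to 1.16 in the others. Deposited ratios are already scaled within a probe set, so 1.00 does not mean equal 5' and 3' signal. Spiked poly-A controls, which are added to the RNA before labelling, were higher in clone 30 than the median of the others for 23 of 24 probe sets, by a median of 0.47 log2 units. The 18 hybridization controls varied over the clones with an SD of 0.08 log2 units. The part of RNA integrity and labelling in the results was not tested. Of 7 endothelial marker genes none could be followed, and their mean ratio was 0.608 in clone 30 against 0.598 to 0.605 in the others. Cardiomyocyte markers averaged 0.855 in clone 30 and 0.821 to 0.856 in the others, and markers of macrophages and blood 0.741 against 0.728 to 0.745. Ratios near the floor carry no level, so these values do not show how many such cells a culture held. Throughout, fewer cells with a transcript and less of it per cell cannot be told apart.

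Clone 30 was higher than the median of the other clones by at least 1 log2 unit for 118 of 9435 genes, a background of 1.25%. It was lower by as much for 158 genes (1.67%). Against every other clone it was higher for 61 genes (0.647%) and lower for 55 (0.583%), and with quantile normalization of the arrays these became 37 and 52. Set against its own 4 others in the same way, no other clone had more than 86 genes higher than the median (clone 1D) or 93 lower (clone 42). At the smaller size of 0.5 log2 units, which is 1.41-fold, 584 genes (6.19%) were higher in clone 30 and 638 (6.76%) lower, and 334 (3.54%) and 264 (2.8%) were so against every other clone. At 2 log2 units, 15 genes (0.159%) were higher and 14 (0.148%) lower, and against every other clone 9 (0.0954%) and 4 (0.0424%). Counted by probe set, 223 of 13953 with a single gene name were at least 1 log2 unit higher (1.6%) and 393 lower (2.82%). Of 2254 measured probe sets with no gene name or several, 20 were higher (0.887%) and 30 lower (1.33%), and they are not used further. At 0.5 log2 units clone 42 had more genes higher than clone 30 did, 602 in the same measure. The median gene deviated by -0.01, and 57.5% of genes lay below 0.

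The 2-fold line separates genes with almost the same values. Just inside it were Pelo at 1.00 and Uqcr11 at 1.01 above, and Mbd6 and Tut4 at -1.01 below. Just outside were Fgd1 and Cep57 at 0.993 above, and Rc3h2 and Rpa2 at -0.999 below.

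The gene farthest above by deviation was Ptgis, prostacyclin synthase, which makes the vasodilator and platelet inhibitor prostacyclin. Its ratio was 8.24 in clone 30, against 1.45 in clone 1D, 1.00 in 11B, 0.715 in 20B and 0.661 in 42. Clone 30 stood 3.28 log2 units above the median of the others and 2.51 above clone 1D, the nearest. Ptgis was read by 1 probe set, and the other 7 measured genes of prostanoid synthesis lay within 0.5 log2 units of the other clones.

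Cryab, the small heat shock protein alpha B-crystallin of heart and skeletal muscle, was read by 2 measured probe sets. One gave 12.2 in clone 30, against 0.986, 1.21, 1.00 and 0.626 in clones 1D, 11B, 20B and 42. The other gave 4.20 in clone 30, against 0.882, 0.958, 0.883 and 0.869. Clone 30 stood alone on both, with a gene deviation of 2.93 log2 units. A further Cryab probe set could not be followed, with 0.676 in clone 30, 0.68 to 0.683 in clones 1D, 11B and 20B, and 0.988 in clone 42. Averaging it in gave a deviation of 1.95. Of 16 measured small heat shock and chaperone genes, Cryab was the only 1 called in either direction (median of the list 0.03, against -0.01 over all genes). Hspb1, another small heat shock protein, had 0.56 log2 units on 2 probe sets, but clones 1D and 20B were higher than clone 30, and the value became -0.20 when clone 11B or clone 42 was left out.

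Clu, the secreted chaperone clusterin, had 4 probe sets, and all placed clone 30 highest. Their ratios in clone 30 were 2.92, 3.69, 3.47 and 4.07, and no other clone exceeded 1.28 on any of them. The gene deviation was 2.06 log2 units, with probe sets between 1.83 and 2.32. Clone 42 was the lowest of the 5 clones on each of these probe sets.

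Slc24a3, a potassium-dependent sodium-calcium exchanger, had a ratio of 5.72 in clone 30, against 0.495, 1.00, 1.25 and 0.753 in clones 1D, 11B, 20B and 42. Aldh3a1, an aldehyde dehydrogenase, had 4.29 in clone 30, against 0.973, 1.03, 1.00 and 0.0889. For Aldh3a1 clone 42 lay far below the remaining 3, so the spread of this gene came from both ends. Cklf, a chemokine-like secreted factor, had 4.8 in clone 30, against 0.826, 1.00, 1.11 and 0.952, but 6 more of its probe sets could not be followed. Averaging those in gave a deviation of 0.33 in place of 2.30 log2 units.

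For several of the genes farthest above, at least 3 of the other 4 clones shared a level. Cobl, an actin nucleator, had 3.27 in clone 30 and 0.427 to 0.430 in every other clone, on a probe set divided by the floor. Myrf, a transcription factor known from myelinating cells, had 5.29 in clone 30 and 0.994 to 1.00 elsewhere. Dapk2, a calmodulin-dependent death-associated kinase, had 4.53 in clone 30 and 0.883 to 1.00 elsewhere. Such shared values recur on many probe sets and are no measurement, so the sizes for Cobl (2.93), Myrf (2.40) and Dapk2 (2.18 log2 units) are uncertain. The same holds for Anxa8, an annexin, whose probe sets gave 0.72 and 4.19, and for Nipal4 and Ccr1, a receptor for inflammatory chemokines. Of the 118 genes called higher, 28 rested only on probe sets with such tied clones, against 8 of the 158 called lower. Over all 9435 measured genes 2718 did (28.8%). Ties were therefore not more frequent among the 118 higher calls than over all genes, and they were rarer among the 158 lower calls. The stricter calls differed: of the 61 genes above every other clone, 23 rested only on such probe sets, a larger share than over all genes. Of the 55 below every other clone, 8 did.

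**Figure D1:**
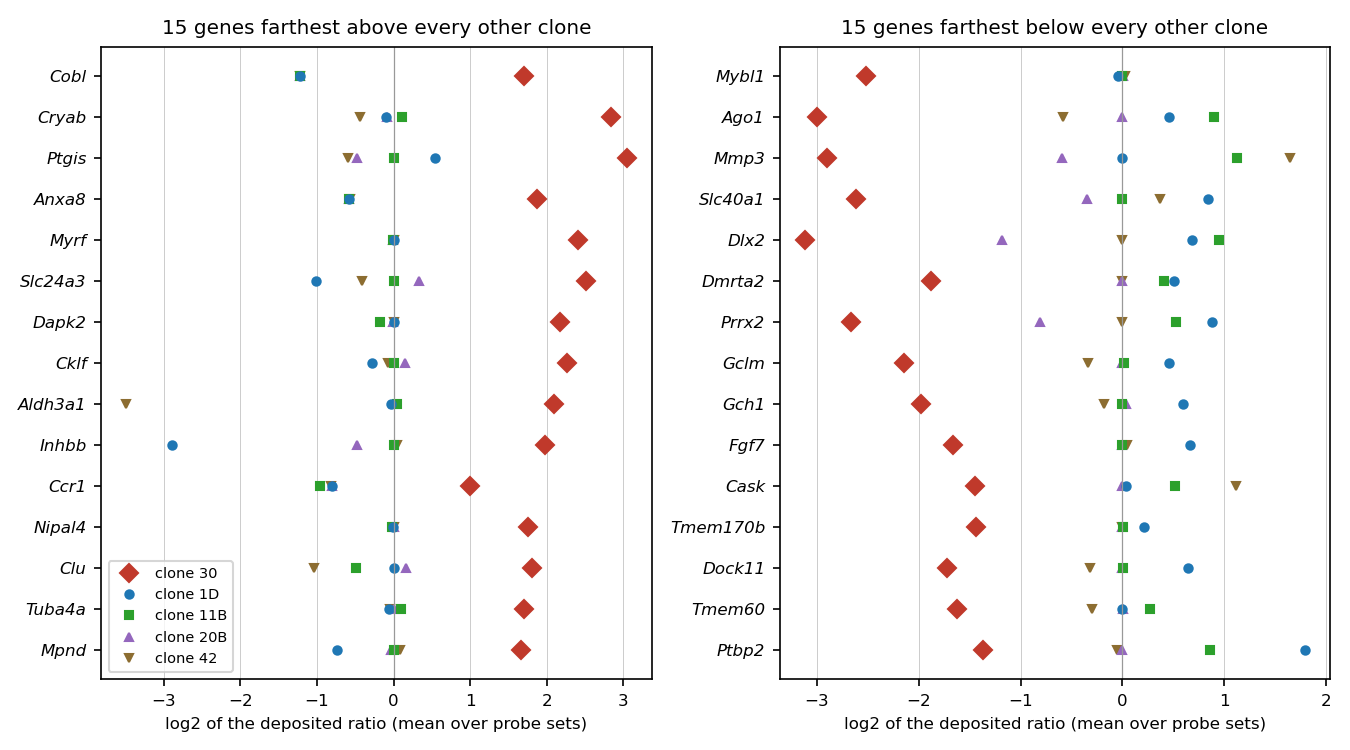
Log2 of the deposited ratio (x axis, mean over probe sets) in each clone for the 15 genes farthest above (left) and the 15 farthest below (right) the nearest other clone, with clone 30 as a red diamond. Clone 30 lies apart from all 4 other clones on every line by the way the genes were chosen; for Cobl, Myrf and Nipal4 the other clones fall on 1 point.

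The gene farthest below the median of the other clones among those set apart from every clone was Mmp3, stromelysin-1, a metalloproteinase that degrades matrix. Its ratio was 0.134 in clone 30, against 1.00 in clone 1D, 2.18 in 11B, 0.664 in 20B and 3.13 in 42. The deviation was -3.46 log2 units, but the other clones themselves spanned more than 2 log2 units.

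Among the 15 genes farthest below the nearest clone were Dlx2, Dmrta2, Prrx2 and Mybl1, which encode transcription factors. Dlx2, a homeobox factor of the branchial arches and forebrain, had 0.115 in clone 30, against 1.60, 1.92, 0.441 and 1.00 in clones 1D, 11B, 20B and 42. Prrx2, a homeobox factor of embryonic mesenchyme, had 0.158 in clone 30, against 1.84, 1.44, 0.571 and 1.00. Dmrta2, a factor of the developing forebrain, had 0.271 in clone 30, against 1.42, 1.32, 0.999 and 1.00. Clone 30 was lowest for these developmental factors, with -3.46 for Dlx2, -2.93 for Prrx2 and -2.09 log2 units for Dmrta2, and clone 20B was the next lowest for Dlx2 and Prrx2. Of 23 measured homeobox genes, Dlx2 and Prrx2 were called lower and Meis1 higher (list median -0.06). Meis1 had 1.87 in clone 30 and 3.29 in clone 11B, so clone 30 was not its highest clone, and its deviation of 1.01 became 0.33 with unmeasured probe sets averaged in.

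Ago1, an Argonaute protein of small RNA silencing, had 0.125 in clone 30, against 1.37, 1.86, 1.00 and 0.665 in clones 1D, 11B, 20B and 42 (-3.23 log2 units). Mybl1, the A-Myb transcription factor known from male meiosis, had 0.174 in clone 30, against 0.970, 1.00, 1.00 and 1.02. Gch1, which opens the synthesis of the nitric oxide synthase cofactor tetrahydrobiopterin, had 0.254 in clone 30, against 1.51, 1.00, 1.02 and 0.884. Clone 30 stood clearly below all others for these 3 genes, each read by 1 measured probe set. Averaging in an unmeasured probe set gave -1.27 for Mybl1 and took Gch1 just short of a call. Cask, a membrane scaffold protein on the X chromosome, was lower on 3 probe sets (-2.47, -2.12 and -1.97 log2 units) and nearer the others on another (-0.36).

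Slc40a1, ferroportin, the exporter of cellular iron, had a ratio of 0.163 in clone 30, against 1.79, 1.00, 0.787 and 1.29 in clones 1D, 11B, 20B and 42. The deviation was -2.80 log2 units, and 0.787 in clone 20B was the nearest value. With an unmeasured probe set averaged in, the deviation was -1.41. Of 10 measured iron-handling genes Slc40a1 was the only 1 called, and 3 were at least 0.5 log2 units lower. The others of these were the metalloreductase Steap1 at -0.62 and the transferrin receptor Tfrc at -0.54, both on probe sets that disagreed: -1.22 and -0.01 for Steap1, -1.34 and 0.25 for Tfrc.

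Agreement of probe sets was examined in the 3047 genes with at least 2 measured probe sets. All probe sets of a gene lay on the same side of 0 for 58.9% of these genes. For 14 genes (0.459%) every probe set was at least 1 log2 unit higher in clone 30, and for 8 (0.263%) at least 1 lower. Of the 71 such genes that were called, 28 higher and 43 lower, the probe sets lay on the same side in 68, and 22 had every probe set past 1 log2 unit. The exceptions were Alcam, Rtn4 and Tuba4a, each with 1 probe set on the other side of 0 by at most 0.04 log2 units. In Tuba4a, an alpha-tubulin, clone 30 read 5.04 and 6.85 on 2 probe sets and 0.989 on the third. A gene is called from the mean of these same probe sets, so agreement among called genes is partly fixed by the call and is no independent check.

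The genes with the most even agreement above, after Cryab and Clu, were Cdh13, Slc6a8, H2ac19, Nupr1, Fst, Krt8, Col6a2 and Slc9a3r2. Cdh13, T-cadherin, a cadherin anchored to the membrane by a lipid, had 8.48, 3.42 and 5.81 in clone 30 on its 3 probe sets. Clone 42 was also high on these, at 6.65, 2.42 and 7.26, while clones 1D, 11B and 20B did not exceed 1.00. Clone 30 was therefore apart from 3 clones but not from clone 42 (2.55 against the median, 0.18 against clone 42). Slc6a8, the creatine transporter, had 2.59 and 2.89 in clone 30, against at most 1.51 in any other clone, and clone 30 was at 2.84-fold the median of the others. Nupr1, a stress-induced nuclear protein, had 2.19 and 1.85 in clone 30, with clone 20B next at 1.78 and 1.33. H2ac19, a histone H2A gene, and Slc9a3r2, a scaffold of membrane transporters, deviated by 1.52 and 1.61, the histone on tied clones.

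Among the genes with even agreement below, Fgf7, keratinocyte growth factor, had 0.397 and 0.250 in clone 30 on 2 probe sets. The other clones had 2.10, 0.995, 1.00 and 1.06 on the first and 1.19, 0.995, 1.00 and 1.00 on the second. Jak1, the kinase of many cytokine receptors, had 0.548 and 0.320 in clone 30, and clone 11B was lower on the first of these, at 0.389. Cul3, the scaffold of a ubiquitin ligase that works with the adaptor Keap1, had 0.441 and 0.435 in clone 30, with no other clone under 0.810. Averaging in 3 unmeasured probe sets gave -0.57 for Cul3 in place of -1.24, and -0.61 for Tomm70a in place of -1.52. Tomm70a, an import receptor of mitochondria, had 0.343 and 0.406 in clone 30, but clone 42 was lower still, at 0.253 and 0.304. The remaining genes of this group, Gnb4, Adipor1, Ranbp9, Itgb1, Dnaja4 and Zfp281, deviated by -1.34 to -1.07 log2 units, and with unmeasured probe sets averaged in Gnb4, Adipor1, Itgb1 and Dnaja4 were at -0.89, -0.78, -0.57 and -0.80. Ranbp9 was at -0.79 without clone 1D or clone 42.

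**Figure D2:**
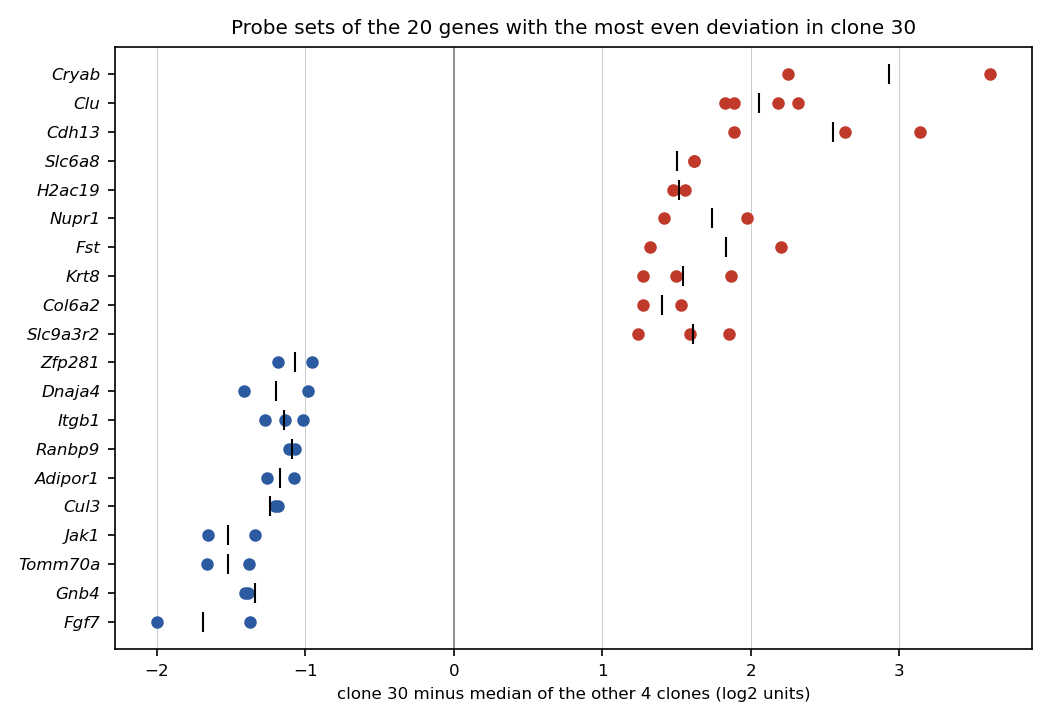
Deviation of clone 30 from the median of the other 4 clones (x axis, log2 units) for each probe set (dots) and gene (black ticks) of the 20 genes with the most even agreement, 10 above and 10 below. The probe sets of a gene lie on the same side throughout, which the choice of the genes fixes, and the ticks run from 2.93 for Cryab to -1.69 for Fgf7.

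Many calls against the median did not reach 1 log2 unit against every other clone. Of the 118 genes called higher, 57 were within 1 log2 unit of some other clone, and the nearest was clone 42 for 25 of them, 11B for 15, 20B for 10 and 1D for 7. Of the 158 called lower, 103 were so, and the nearest was clone 42 for 50, 11B for 29, 20B for 13 and 1D for 11. A nearest clone need not deviate itself, so these are not counts of shared changes. The most extreme deviation of all was shared with clone 42. Cd81, a tetraspanin that organises receptors and integrins at the cell surface, had 0.0480 in clone 30 and 0.0482 in clone 42, against 1.00 in 1D, 1.00 in 11B and 3.48 in 20B. Lama5, the alpha 5 laminin chain of basement membranes, had 0.116 in clone 30 and 0.151 in clone 42, against 3.16 in 1D, 1.00 in 11B and 2.13 in 20B. Its deviation was -3.65 log2 units, or -1.22 with 2 unmeasured probe sets averaged in, and it was the only 1 of 11 measured basement membrane genes to be called (list median 0.01).

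SDF-1, encoded by Cxcl12, attracts progenitor and endothelial cells through the receptor Cxcr4. On the probe set scaled to its own median Cxcl12 had a ratio of 0.307 in clone 30, against 0.997 in 1D, 1.89 in 11B, 1.00 in 20B and 1.00 in 42. On the other measured probe set, divided by the floor, clone 30 had 0.974, against 0.984, 2.78, 0.987 and 1.06. Clone 30 was lowest on both but by -1.70 log2 units on the first and by -0.07 on the second. On the first, clones 1D, 20B and 42 were tied, so its size is uncertain, and the gene deviation rests mainly on it. The gene deviation of -0.89 was under the 2-fold line. A further Cxcl12 probe set could not be followed. On it clone 30 was the highest clone, at 0.965 against 0.794, 0.92, 0.925 and 0.925 in clones 1D, 11B, 20B and 42. The scavenging receptor Ackr3 had 0.991 in clone 30, against 1.14, 1.00, 1.00 and 0.845. Cxcr4 could not be followed, with 0.768 in clone 30 and 0.775 to 0.779 elsewhere.

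Kit, which encodes c-kit, had 0.991 in clone 30, against 1.00, 1.00, 1.18 and 0.997 in clones 1D, 11B, 20B and 42. Pou5f1, which encodes Oct-4, could not be followed, nor could any of the 4 pluripotency genes examined. Ly6a, which encodes Sca-1, had no probe set of its own, so the marker used to isolate the cells is not read here.

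Other secreted signals were also mixed. Of 14 measured chemokines and cytokines none was called, 3 were at least 0.5 log2 units higher and 2 lower (list median 0.07). Ccl2, which attracts monocytes, had 1.24 in clone 30, against 1.03, 0.639, 1.00 and 0.279 in clones 1D, 11B, 20B and 42. Cxcl1 and Lif were higher by 0.52 and 0.62 log2 units, while Csf1, the macrophage growth factor, was at -0.77. Of 12 measured vascular growth factors and receptors 3 were called, all lower: Adm, Fgf7 and Vegfb. Adm, the vasodilator peptide adrenomedullin, had 0.281 in clone 30 on 1 probe set and 0.749 on another. Clone 42 had 0.319 and 0.666 there, and the remaining clones 1.00 to 3.37. Vegfb, a growth factor of the VEGF family, had 0.495 in clone 30, against 1.00, 1.12, 0.989 and 1.00. Angptl4, an inhibitor of lipoprotein lipase, was higher, at 1.67 in clone 30 against 0.458 to 1.08.

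Surface proteins used to mark mesenchymal progenitors were lower in clone 30 for 3 of the 5 that could be followed, with a list median of -1.02. Over all genes 1.67% were called lower. The others followed, Vcam1 and Eng, deviated by 0.15 and -0.01, and Thy1 and Nt5e could not be followed. With unmeasured probe sets averaged in, none of the 3 was called and the list median was -0.51, and with the median in place of the mean of probe sets it was -0.57. Cd44, the hyaluronan receptor, had 0.266 in clone 30, against 1.19, 0.659, 1.17 and 1.00 in clones 1D, 11B, 20B and 42. A further 3 probe sets of Cd44 could not be followed, and averaging them in gave a deviation of -0.51 in place of -2.02 log2 units. Itgb1, the beta 1 integrin subunit, had 0.631, 0.579 and 0.538 in clone 30 on 3 probe sets. Clone 11B was nearest on these, at 0.964, 0.905 and 0.615. A further 3 probe sets of Itgb1 could not be followed and gave -0.57 when averaged in, in place of -1.14, and without clone 1D or without clone 42 the value was -0.78. Alcam, an adhesion molecule of the immunoglobulin family, had 0.175 and 0.608 on 2 probe sets but 1.02 and 0.989 on the others, and its deviation of -1.02 became -0.81 with an unmeasured probe set and -0.80 without clone 11B or clone 20B.

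Of 10 measured integrins, Itga6 and Itgb1 were called lower and none higher (list median -0.05). Itga6, a laminin-binding alpha subunit, had 0.149 in clone 30 on 1 probe set, against 1.57, 0.50, 1.00 and 1.24, and 0.990 on another where all clones lay between 0.990 and 1.12. Itgb5, a vitronectin-binding beta subunit, was higher on 3 of its 4 probe sets, with a gene deviation of 0.75. Cd151, a tetraspanin partner of laminin-binding integrins, lay between -1.33 and -1.13 on 4 probe sets and at -0.02 on another. Its gene deviation of -0.99 stayed just short of a call, and Cd81 was the only called gene of 13 measured tetraspanins.

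Epithelial and mesothelial markers differed one by one. Krt8 was the only 1 called of 8 measured keratins and epithelial junction genes (list median 0.06), and Krt8 and Upk3b were called among 4 measured epicardial and mesothelial markers (list median 1.00). Krt8, a keratin of simple epithelia, had 2.27, 3.55 and 2.81 in clone 30 on 3 probe sets. Clone 1D was next on each, at 1.95, 1.34 and 1.41, and the other 3 clones had 0.638 to 1.00. The gene deviation was 1.55 log2 units. Upk3b, a uroplakin of mesothelium, had 1.36 in clone 30 and 0.568 to 0.602 elsewhere, and Krt7, another simple keratin, 1.67 against 0.859 to 0.890. Both were divided by the floor with the other clones tied, so their sizes of 1.19 and 0.94 are uncertain. Averaging in an unmeasured probe set gave 0.59 for Upk3b. Msln, mesothelin, had 1.76 in clone 30, against 0.977 to 1.00 elsewhere. Krt18, the usual partner of Krt8, had 0.989 in clone 30, against 0.998 to 1.05 elsewhere. Of the junction genes Pkp4 was at -0.44, and Epcam, Cldn3, Tjp1 and Dsg2 lay between -0.01 and 0.09. Of the 8 epicardial and mesothelial markers listed, Wt1, Tbx18, Krt19 and Aldh1a2 could not be followed. The mean ratio over all probe sets of these 8 genes was 1.42 in clone 30, against 0.964, 0.758, 0.819 and 0.818 in clones 1D, 11B, 20B and 42. Without the 3 probe sets of Krt8 it was 0.933 in clone 30, against 0.763, 0.763, 0.773 and 0.763. The part of mesothelial cells in these values was not tested.

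Among smooth muscle genes a single one stood out. Tagln, the actin-binding protein SM22, had 3.56 in clone 30, against 0.875, 1.51, 0.995 and 1.00 in clones 1D, 11B, 20B and 42, a deviation of 1.83 log2 units. It was the only 1 called of 11 measured contractile genes, whose median was 0.04. Tpm2, a tropomyosin, was at 0.54 and Cald1, caldesmon, at -0.58. Cnn1, Myocd and Mylk could not be followed.

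Over the 26 measured genes of TGF-beta, activin and BMP signalling, 3 were called higher (Inhbb, Fst and Tgfb3) and 2 lower (Tgfbr3 and Acvr1), and the median was -0.08. Activins are dimers of inhibin beta chains that act through the Acvr receptors, and follistatin binds and blocks them. Inhbb, a beta chain, had 3.94 in clone 30, against 0.134, 1.00, 0.716 and 1.03 in clones 1D, 11B, 20B and 42. Fst, follistatin, had 4.44 and 2.39 in clone 30 on 2 probe sets, with no other clone above 1.19. Clone 30 thus held the highest ratio for both the ligand chain and its inhibitor, at 2.22 and 1.83 log2 units. An unmeasured probe set averaged in gave 1.10 for Inhbb. Tgfb3 was also higher, at 2.88 in clone 30 against 0.987 to 1.21, with other clones tied. Inhba, the other activin beta chain measured, and Fstl3, a follistatin relative, deviated by 0.15 and -0.01.

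Among the 8 receptor genes measured in this list, Tgfbr3 and Acvr1 were called lower. Tgfbr3, the co-receptor betaglycan, had 0.408 in clone 30, against 1.23, 1.00, 1.00 and 0.916 in clones 1D, 11B, 20B and 42. Acvr1, a type I receptor for BMPs and activins, had 0.389 and 0.621 in clone 30 on 2 probe sets, with no other clone under 0.794. Acvr2a, a type II activin receptor, and Bmpr2, the type II BMP receptor, deviated by -0.91 and -0.90 log2 units, and the ligand Tgfb1 by -0.85. Tgfbr1, Tgfbr2, Acvr2b and Bmpr1a lay nearer the other clones, at -0.32, -0.26, -0.24 and -0.03. With unmeasured probe sets averaged in, Tgfbr3 was at -0.66 and Acvr1 at -0.73, short of a call.

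**Figure D3:**
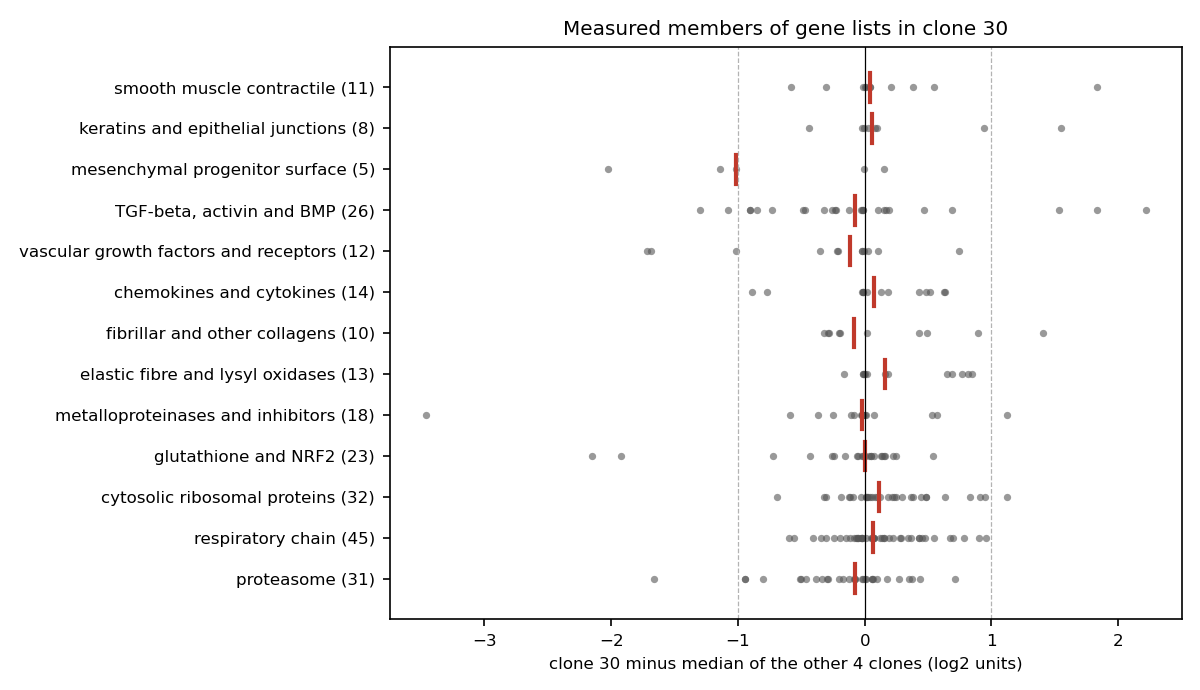
Deviation of clone 30 from the median of the other 4 clones (x axis, log2 units) for the measured members (dots, number in brackets) of 13 gene lists, with the list median as a red bar and dashed lines at 1 and -1. Most medians lie near 0, from -0.11 to 0.16, and that of the 5 mesenchymal progenitor surface genes is at -1.02.

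Matrix genes were called singly rather than as lists. Col6a2, a chain of the beaded microfibril collagen VI, had 2.89 and 2.39 in clone 30 on 2 probe sets, against at most 1.5 and 1.61 in any other clone. Col6a3, another chain of the same collagen, had 1.84 in clone 30, against 1.00, 0.986, 1.14 and 0.464 in clones 1D, 11B, 20B and 42. Col6a2 was the only called gene of 10 measured collagens, and the list median was -0.09. Bgn, the small proteoglycan biglycan, had 1.45, 1.38 and 2.96 in clone 30 on 3 probe sets. Clone 42 was the lowest clone on each, at 0.471, 0.582 and 0.0609. The deviation of Bgn was 1.06, and 0.86 without clone 1D or clone 42. Sparc, a matricellular glycoprotein, was at 0.76, with 2 probe sets of 1.27 and 0.91 and another at -0.02.

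Elastic fibre genes gave 5 of 13 at least 0.5 log2 units higher and none lower, where 6.19% and 6.76% of all genes were. None reached 1. The 5 higher genes were the lysyl oxidase relatives Loxl1 (0.85) and Loxl3 (0.82), the microfibril protein Emilin1 (0.77), and the latent TGF-beta binding proteins Ltbp1 (0.69) and Ltbp4 (0.65). The list median was 0.16. For Loxl1 the ratio was 1.74 in clone 30 and 1.79 in clone 42. For Ltbp4 clone 30 was only 0.07 log2 units above clone 1D, and the 2 probe sets of Emilin1 gave 1.56 and -0.02. Among 18 measured metalloproteinases and inhibitors, Mmp3 was called lower and Timp2 higher. Timp2, a tissue inhibitor of metalloproteinases, had 2.75, 1.32 and 2.37 in clone 30 on 3 probe sets, with no other clone above 1.25. Its deviation of 1.12 became 0.71 with 3 unmeasured probe sets averaged in and 0.93 without clone 1D or clone 42, so the call was lost.

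Glutathione and quinone metabolism held 2 genes called lower. Gclm, the modifier subunit of the enzyme that limits glutathione synthesis, had 0.226 in clone 30, against 1.38, 1.01, 1.00 and 0.793 in clones 1D, 11B, 20B and 42. Nqo1, a quinone reductase used as a reporter of the transcription factor NRF2, had 0.275 in clone 30, against 1.08, 1.00, 1.18 and 0.497. Clone 42 was the next lowest clone for both genes, and the deviations were -2.15 and -1.92 log2 units. For Gclm an unmeasured probe set averaged in gave -1.07. Gsr, glutathione reductase, gave -1.39 on 1 probe set and -0.07 on another. Of 23 measured genes of this list those were the only 2 called, and the list median was 0.00.

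The promoters of the called pair are shown because NRF2 is known to act on such genes through the antioxidant response element, whose core is TGACNNNGC. Each sequence is the 250 bases before the gene's start, from RefSeq on build GRCm38.p6, and capitals mark a match to the core on either strand. Gclm lies on the plus strand at chr3:122245307-122245556 and Nqo1 on the minus strand at chr8:107403206-107403455.
Gclm: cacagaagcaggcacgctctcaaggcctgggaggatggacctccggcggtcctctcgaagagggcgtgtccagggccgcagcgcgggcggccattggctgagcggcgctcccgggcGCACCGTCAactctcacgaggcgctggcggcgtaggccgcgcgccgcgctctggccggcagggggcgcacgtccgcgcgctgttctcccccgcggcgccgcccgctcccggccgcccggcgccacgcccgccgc
Nqo1: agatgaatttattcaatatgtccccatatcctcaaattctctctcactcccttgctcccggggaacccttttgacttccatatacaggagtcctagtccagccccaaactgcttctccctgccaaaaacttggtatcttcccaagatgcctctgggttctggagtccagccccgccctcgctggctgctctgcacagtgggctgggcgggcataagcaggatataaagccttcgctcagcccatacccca

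In Gclm the core occurred in antisense orientation, 134 to 126 bases before the start, and in Nqo1 these letters did not occur in the window. Sequence farther upstream was not searched, so absence from the 250 bases does not show that a gene lacks the element. Over all 32851 promoter entries of the same length 10.2% held the core. The count for the list is by gene, with a match in any entry of the gene, so it is not a like measure. Of the 23 listed genes with a promoter entry 7 held the core: G6pdx, Gclm, Gsta3, Gstm5, Mgst1, Nfe2l2 and Txnrd1. Among these, G6pdx had no measured probe set, Txnrd1 deviated by 0.16 in clone 30, Nfe2l2, which encodes NRF2 itself, by -0.24, and Gsta3, Gstm5 and Mgst1 by -0.02, 0.15 and -0.05. A match describes the letters and does not show a site in use.

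Transcription factors of the heart and immediate early genes differed one by one. Foxc2, a forkhead factor of vessels and valves, had 2.04 in clone 30, against 0.188, 1.45, 1.00 and 0.305 in clones 1D, 11B, 20B and 42. Mef2c, a muscle and endothelial factor, had 0.154 and 0.346 in clone 30 on 2 probe sets but 1.00 and 0.751 on the others. The gene deviations were 1.89 and -1.40 log2 units. For Foxc2 the other clones were far apart, and leaving out 1 of them gave 1.03 (without 1D or 42) or 2.74 (without 11B or 20B). In this list no other of the 15 measured cardiac factors was called. Klf2, a flow-responsive factor, had 2.29 in clone 30, against 0.624, 0.855, 1.02 and 1.00, and was the only 1 called of 20 immediate early genes. Rhob, a small GTPase of endosomes and actin, had 3.41 in clone 30, against 0.501, 0.624, 1.00 and 1.91.

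Genes of proliferation lay close to the other clones. Of 20 measured DNA replication genes Rfc4, a subunit of the clamp loader, was the only 1 called, at -1.45 (-0.71 with an unmeasured probe set averaged in), and the list median was -0.03. Pcna, the sliding clamp, had 0.565 in clone 30, against 1.10, 1.11, 0.871 and 1.00 in clones 1D, 11B, 20B and 42. None of 21 mitosis genes was called, and their median was -0.02. Bub1, a spindle checkpoint kinase, and Plk1, a mitotic kinase, had the largest deviations there, at -0.69 and -0.51.

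Ribosomal and respiratory chain genes had small deviations. Of 32 measured cytosolic ribosomal proteins 24 were above 0, where 42.4% of all genes were, and their median was 0.11. Rps28 had 1.62, 1.77 and 2.15 in clone 30 on 3 probe sets, with no other clone above 1.13, and Rps15 had 2.07 and 1.52, with clone 42 next at 1.22 and 1.01. Rplp0, of the ribosomal stalk, went the other way at 0.708 in clone 30, but clone 11B was lower, at 0.364. Of 45 respiratory chain genes 27 were above 0, again beside 42.4% of all genes, and the median was 0.07. Sdha, a subunit of complex II, had 1.73 in clone 30 and 2.37 in clone 42, against 0.697 to 1.00 elsewhere. Of 31 proteasome genes 19 were below 0, near the share of 57.5% over all genes. Psma4, a core subunit, was the only 1 called, at 0.354 in clone 30 and 0.357 in clone 42, against 1.00 to 1.59. The proteasome median was -0.08.

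Genes that deviated in clone 30 were unevenly spread along the genome. Gene order came from RefSeq on build GRCm38.p6, and 9421 genes could be placed. At 0.5 log2 units, 6.19% of placed genes were higher and 6.77% lower in clone 30. Chromosome 13 had the largest share of lower genes, 46 of 349 (13.2%), with 19 higher. Chromosome 4 had 8 higher and 74 lower of 586 genes, and chromosome 19 had 4 higher and 38 lower of 333. Chromosomes 1, 2, 3 and 7 leaned the same way, with 17 higher and 67 lower of 523, 24 and 76 of 766, 14 and 38 of 457, and 29 and 66 of 752.

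Other chromosomes leaned towards higher values. Chromosome 9 had 70 higher and 14 lower of 520 genes, chromosome 10 had 63 and 22 of 466, chromosome 12 had 38 and 13 of 321, and chromosome 17 had 41 and 8 of 451. Chromosome 11 had 55 and 22 of 783, and the remaining chromosomes had closer counts on the sides. The side that held more genes was the same in each of 15 alternative treatments of the values for the 12 chromosomes with counts above, a comparison chosen after seeing the data. The same held for chromosomes 6, 8, 16 and X, so it does not mark out the 12. The treatments reuse the same arrays and are no replicate check. On chromosome 4 the same measure gave 64 higher and 4 lower genes in clone 20B. On chromosome 9 it gave 17 higher and 50 lower in clone 42. Clone 42 leaned higher on chromosomes 10 (45 higher and 9 lower), 11 (52 and 21), 12 (26 and 11) and 17 (42 and 5). Of the chromosomes that leaned to lower values above, clone 42 leaned lower on 1 (22 and 38) and 4 (13 and 22). It leaned higher on 2, 3, 7, 13 and 19, with 53 and 4 on chromosome 13. Clone 42 had 54 higher and 5 lower on chromosome 14, and clone 11B 18 and 68 on chromosome 11, so other clones leaned too. The deviations of the clones share arrays, so these counts are not independent of one another.

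**Figure D4:**
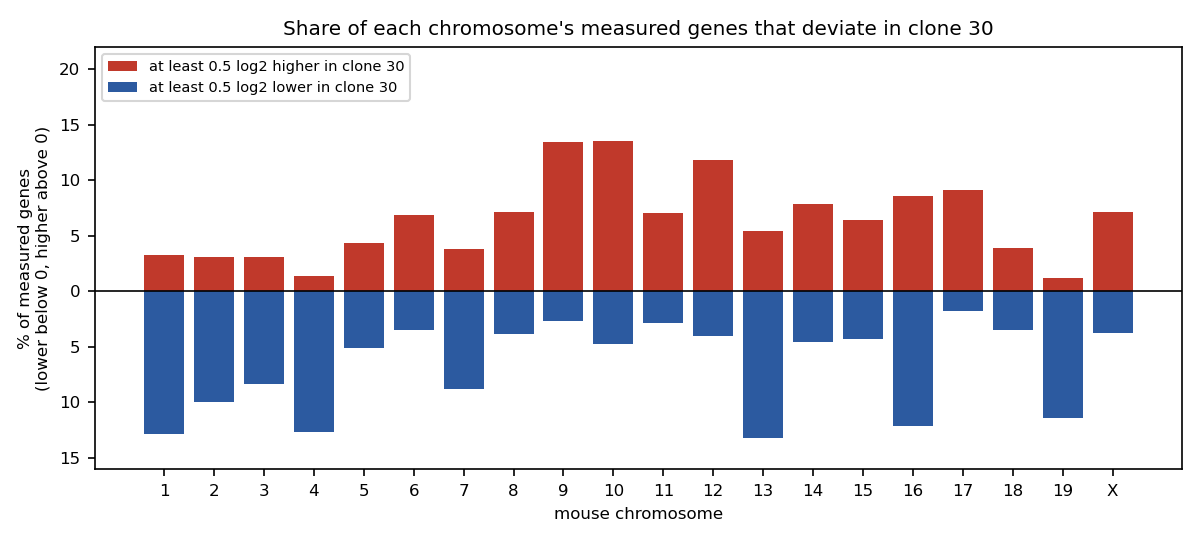
Share of each chromosome's measured genes (y axis, percent) that were at least 0.5 log2 units higher (red, above 0) or lower (blue, below 0) in clone 30 than the median of the other 4 clones. Chromosomes 9, 10, 11, 12 and 17 lean to higher and chromosomes 1, 2, 3, 4, 7, 13 and 19 to lower, with the largest lower share, 13.2%, on chromosome 13.

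Within chromosomes, runs of 15 neighbouring measured genes were ranked by their median deviation, and the highest and the lowest 3 runs without overlap are described. The highest lay on chromosome 16 from Osbpl11 to Kpna1, with a median of 0.75 and 13 of 15 genes above 0. The same run had medians of -0.04, -0.01, -0.04 and 0.03 in clones 1D, 11B, 20B and 42. Hacd2, an enzyme of very long chain fatty acid synthesis, had 3.83 in clone 30 there, against 0.901, 1.00, 0.848 and 1.51. Umps, which completes uridine monophosphate synthesis, had 3.44 in clone 30, against 1.00, 1.00, 0.999 and 1.30. With their unmeasured probe sets averaged in, Hacd2 was at 1.11 and Umps at 0.45 log2 units. Osbpl11, an oxysterol-binding protein relative, had 2.31 and 2.38 on 2 probe sets, with no other clone above 1.54. Kpna1, an importin alpha, was higher on all 4 of its measured probe sets, by 0.34 to 1.39 log2 units, and Itgb5, described above, lies in the same run.

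The other high runs were both on chromosome 17. From Micos13 to Gpr108 the median was 0.62 in clone 30 and 0.69 in clone 42, so the run was shared by these clones. From Chtf18 to Capn15, which includes Msln, it was 0.58 in clone 30 and 0.03 in clone 42. Micos13, a mitochondrial cristae protein, had 2.42 in clone 30, against 1.00, 0.957, 0.917 and 1.66, and Antkmt, a mitochondrial methyltransferase, 2.29 against 0.831, 0.616, 1.00 and 1.83.

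Of the low runs, 2 lay on chromosome 16 and 1 on chromosome 1, and clone 42 was low in each. From Bbx to Filip1l the median was -0.60 in clone 30 and -0.40 in clone 42, and this run holds Alcam and Tomm70a. Zbtb11, a zinc finger protein, had 0.339 in clone 30, against 1.01, 1.17, 1.00 and 0.747. From Ece2 to Rfc4 all 15 genes were below 0, with a median of -0.53 in clone 30 and -0.85 in clone 42. Dnajb11, a chaperone of the endoplasmic reticulum, had 0.393 in clone 30 and 0.401 in clone 42, against 1.00 to 1.39. On chromosome 1 from Arpc2 to Retreg2 the medians were -0.52 and -0.50 in these clones, and Arpc2, a subunit of the Arp2/3 actin nucleator, had 0.465 in clone 30, against 1.01, 1.00, 1.09 and 0.770. The high and low runs of chromosome 16 thus lie on the same chromosome, which as a whole had 27 higher and 38 lower of 313 genes.

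**Figure D5:**
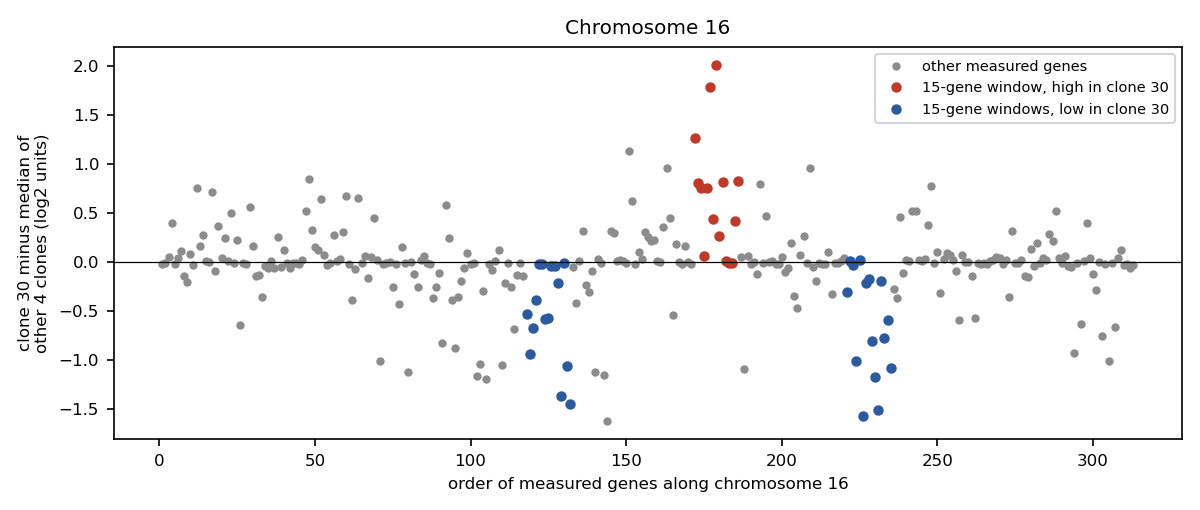
Deviation of clone 30 from the median of the other 4 clones (y axis, log2 units) for 313 measured genes in their order along chromosome 16 (x axis, rank), with the high run in red and the low runs in blue. The red run reaches 2.01 at Hacd2, and the blue runs reach -1.45 at Rfc4 and -1.57 at Zbtb11.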

How the data were processed

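Total RNA of 5 clones was measured on Affymetrix arrays, 1 per clone, and the authors' deposited table holds a linear ratio for 45101 probe sets. The submitters' processing notes name RMA and GCRMA without roles or versions. The ratio's divisor is read from the values, since no header or label states it: 18926 probe sets had a median of exactly 1 and none had a higher one. Scale, background and detection calls stay unknown. Depth in reads does not apply, and the number of arrays limits the precision.

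Probe sets with 1 gene symbol in the supplied annotation were used (34958; 932 had several symbols and 9211 none), and 64 control probe sets were left out. A probe set was measured if its median was 1 or any clone exceeded 1, and if its range exceeded 0.05 log2 units. Calls on the lower side needed a probe set scaled to its own median. Other clones were tied where 3 of 4 lay within 0.02 log2 units. With 1 array per clone no test was run, and adjustment, batches and replicate agreement could not be examined.

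Named genes were those of the SDF-1 and stem cell markers, the 15 farthest above and below the nearest clone, the 10 with the most even probe sets on each side, up to 5 per described list, and up to 4 per run of 15 genes. Acvr2a, Bmpr2, Tgfb1, Rtn4, the other receptor, activin, keratin and junction genes given beside them, and the listed genes with a promoter match were named after their values were seen. The members and the 29 lists described were chosen with earlier results of these data known. Calculations ran in Python 3.11.15 with pandas 2.3.3 and were tested on simulated ratios.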

Additional observations from a re-analysis of the deposited data

How the results depend on the processing

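Across 15 alternative treatments no called gene among the 192 named changed sign, and 47 of the 84 called ones were called wherever they were measured. Averaging every probe set ended 27 of these calls, and no other treatment ended more than 7 among the genes it still measured. Leaving out probe sets with 3 other clones tied measured only 6717 genes. It kept 87 of the 118 higher, 150 of the 158 lower, 37 of the 61 above every clone and 46 of the 55 below. The counts of 118 higher, 158 lower, 61 above every clone and 55 below every clone moved by over 1.5 times in these cases. Averaging every probe set, unmeasured ones included, gave 72 lower and 23 below every clone. Reading each gene from its probe set of highest mean gave 178 higher. Quantile normalization gave 37 above every clone. Leaving clone 42 out of the others gave 92 below every clone. Moving the size changed the counts to 584, 638, 334 and 264 at 0.5 log2 units, and to 15, 14, 9 and 4 at 2. Of the 61 genes, 37 were kept under quantile normalization, and of the 55 genes, 23 when every probe set was averaged. The cause was not tested. No paired analysis was possible because each clone has 1 array and no test was run. Dim probe sets divided by the floor, and other clones that share a level, limit the sizes.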
